A study of Bos taurus with 16 samples.

Results

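CYP11A1, HSD3B1 and FDX1, which carry out the first steps of steroid synthesis, were followed over all treatments. They were chosen by name: every probe set that the platform annotation gives to 1 of these symbols alone was taken. This gave 3 of the 9155 genes named on the array, each with 1 probe set of the 24016 tested. The cells were bovine theca interna cells, pooled from about 50 follicles of 4 to 6 mm from ovaries of adult cattle, in serum-free primary culture for 6 days. On days 3 to 6 they received LH (160 pg/ml) with BMP6 (10 ng/ml), BMP6 alone, LH alone, or neither (control), with 4 arrays in each of the 4 groups and 16 in all. The experiment was repeated 4 times with cells from separate ovary batches. The cells of each culture came from many animals, so the spread between arrays is that between cultures, not between single animals.

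CYP11A1 is the mitochondrial cytochrome P450 that cleaves the side chain of cholesterol and makes pregnenolone, the precursor of all other steroid hormones. It cannot work without electrons, which the small iron-sulfur protein ferredoxin, encoded by FDX1, carries to it from ferredoxin reductase. HSD3B1 is the 3-beta-hydroxysteroid dehydrogenase that turns pregnenolone into progesterone, and it turns dehydroepiandrosterone into androstenedione, the main androgen of theca cells. In the follicle, luteinising hormone (LH) acts on theca cells through cAMP to drive this pathway, while bone morphogenetic protein 6 (BMP6) signals through serine-threonine kinase receptors and SMAD proteins.

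All values are log2 signals, and changes are log2 differences ± SE from limma with n = 4 arrays per group. A change is called at a Benjamini-Hochberg adjusted p under 0.05 over the 24016 probe sets. Arrays of a group correlated at r between 0.990 and 0.997 over probe sets, and the array medians lay between 6.10 and 6.16. A weaker signal of the spiked hybridisation controls (mean of 9 probe sets, 9.23 to 9.32) marked LH replicate 1 and control replicates 1 and 3, while all other arrays read 10.46 to 10.72. Precision is limited by the number of arrays: a typical SE (median over probe sets) was 0.102. The SE of a gene pools its spread in all 4 groups, although the groups differed in spread.

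CYP11A1 read 9.15, 9.12, 9.03 and 9.27 on the 4 arrays with LH+BMP6 and 9.36, 9.08, 8.93 and 8.81 on the 4 with BMP6 alone (replicates 1 to 4). With LH alone it read 12.39, 11.72, 11.53 and 11.36, and in control 11.17, 11.27, 11.25 and 11.32. The 8 arrays with BMP6 were low and the 8 without it high, with no overlap. The control arrays lay close together (11.25 ± 0.06, SD, n = 4), whereas the LH arrays were spread out (11.75 ± 0.45), with replicate 1 the highest.

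HSD3B1 read 9.53, 8.74, 9.13 and 9.26 with LH+BMP6 and 9.94, 8.55, 9.34 and 9.31 with BMP6 alone. With LH alone it read 12.58, 11.78, 11.64 and 11.60, and in control 11.84, 11.74, 11.37 and 11.52. Again the arrays with BMP6 were all below those without it. HSD3B1 spread most of the 3 genes among the arrays with BMP6 (9.17 ± 0.33 with LH+BMP6 and 9.28 ± 0.57 with BMP6 alone), and replicate 2 was the lowest in both of these groups. Whether its probes also detect other members of the HSD3B family was not tested.

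FDX1 read 11.27, 11.59, 11.33 and 11.30 with LH+BMP6 and 11.35, 11.32, 11.36 and 11.34 with BMP6 alone. With LH alone it read 12.65, 12.13, 11.89 and 11.97, and in control 11.70, 11.82, 11.71 and 11.75. The arrays with BMP6 were again the lower ones, but by far less than for the P450 and the dehydrogenase. The 4 arrays with BMP6 alone lay within 0.0439 of each other (11.34 ± 0.02, SD, n = 4), and the LH arrays were the most spread (12.16 ± 0.34).

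**Figure D1:**
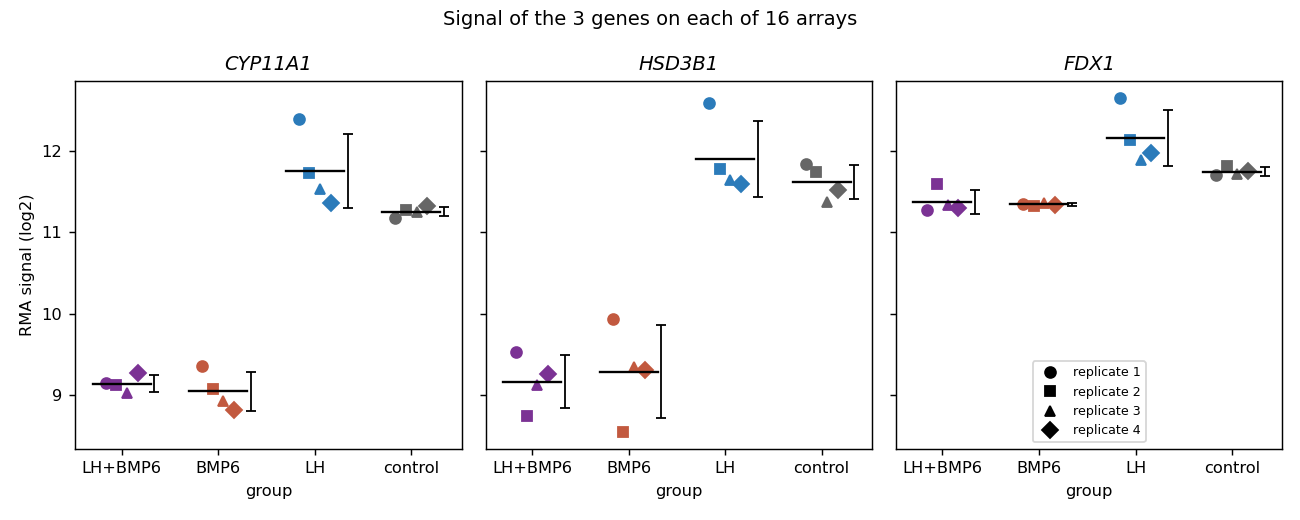
Log2 signal (vertical axis) of CYP11A1, HSD3B1 and FDX1 on each of the 16 arrays by group; a point is an array, its shape the replicate number, the horizontal line the group mean and the bar at its side the SD of 4 arrays. CYP11A1 and HSD3B1 lie between 8.55 and 9.94 on the arrays with BMP6 and between 11.17 and 12.58 on those without, FDX1 between 11.27 and 11.59 and between 11.70 and 12.65.

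BMP6 alone lowered all 3 genes. CYP11A1 fell 4.61-fold (95% confidence interval 3.64 to 5.84), a log2 change of -2.21 ± 0.16, which left 21.7% of the control signal (adjusted p = 1.58e-07). HSD3B1 fell 5.04-fold (3.49 to 7.27), a log2 change of -2.33 ± 0.25, to 19.9% of control (adjusted p = 8.96e-06). FDX1 fell 1.32-fold (1.11 to 1.57), a log2 change of -0.40 ± 0.12, to 75.7% of control (adjusted p = 0.0263). For each gene the 4 BMP6 arrays lay below the 4 control arrays. Of all probe sets, 18.1% were called in this comparison, 9.95% were called lower and 12.7% had 4 BMP6 arrays below 4 control arrays. The fall of HSD3B1 was the 16th in size among 9155 named genes, that of CYP11A1 the 19th and that of FDX1 the 852nd. The FDX1 call lay near the threshold. It was lost when BMP6 replicate 2 or 4, or control replicate 2 or 4, was left out (adjusted p 0.0535 to 0.0719). Over all fits with arrays left out its change was between -0.42 and -0.37. Without LH replicate 1, which is outside this comparison but enters the pooled SE, the change stayed at -0.40 ± 0.07 (adjusted p = 0.000901). With weak hybridisation controls as a term its change was -0.28 (adjusted p = 0.176), and without those 3 arrays it was -0.44 (adjusted p = 0.00673).

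In cells that also received LH, BMP6 again lowered all 3 genes, by larger values, although the interaction of LH and BMP6 was not called for any of them. CYP11A1 fell 6.10-fold (4.81 to 7.72), a log2 change of -2.61 ± 0.16, to 16.4% of its signal with LH alone (adjusted p = 3.69e-08). HSD3B1 fell 6.65-fold (4.61 to 9.60), a log2 change of -2.73 ± 0.25, to 15.0% (adjusted p = 1.69e-06). FDX1 fell 1.73-fold (1.45 to 2.06), a log2 change of -0.79 ± 0.12, to 58.0% (adjusted p = 0.000193). Here 20.3% of all probe sets were called, 10.3% were called lower and 11.2% had 4 LH+BMP6 arrays below 4 LH arrays, as the 3 genes did. By the size of their fall HSD3B1, CYP11A1 and FDX1 ranked 14th, 16th and 239th among the 9155 genes. Without LH replicate 1 the changes were -2.40 for CYP11A1, -2.50 for HSD3B1 and -0.62 for FDX1, and each was still called (highest adjusted p = 5.77e-05).

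Cells with both hormones were also set against untreated control. All 3 were lower, with log2 changes of -2.11 ± 0.16 for CYP11A1 (adjusted p = 2.67e-07), -2.45 ± 0.25 for HSD3B1 (adjusted p = 5.09e-06) and -0.37 ± 0.12 for FDX1 (adjusted p = 0.0381). Of all probe sets 19.3% were called in this comparison and 10.1% were called lower. This comparison uses the same control arrays as BMP6 alone against control. Its FDX1 call was lost without any single control array and without LH+BMP6 replicate 1, 3 or 4 (adjusted p 0.0596 to 0.0948).

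Whether FDX1 fell less than the enzymes was read from ratios within an array, since no scaling of an array can alter them. The log2 ratio of CYP11A1 to FDX1 was -2.30 ± 0.24 with BMP6 alone, against -0.49 ± 0.05 in control (SD, n = 4), a difference of -1.80. With LH+BMP6 it was -2.23 ± 0.19, against -0.41 ± 0.15 with LH, a difference of -1.82. For HSD3B1 over FDX1 the differences were -1.93 and -1.95. In each of these 4 comparisons the groups did not overlap, and the exact two-sided permutation p was 0.0286, which is the lowest value possible with 4 arrays in each group. Adjusted over the 12 ratio tests it was 0.0857, which does not pass 0.05. Full separation in these 4 comparisons thus gave no adjusted p under 0.05, so the adjusted value cannot decide the question at that threshold. The limma confidence intervals of the fold changes given above did not overlap between FDX1 and either enzyme. The ratio of CYP11A1 to HSD3B1 overlapped between groups and differed by 0.13 with BMP6 against control (exact p = 0.8) and by 0.13 with LH+BMP6 against LH (exact p = 0.543). The sign of both differences turned without replicate 2 of the group with BMP6 (-0.13 and -0.01).

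**Figure D2:**
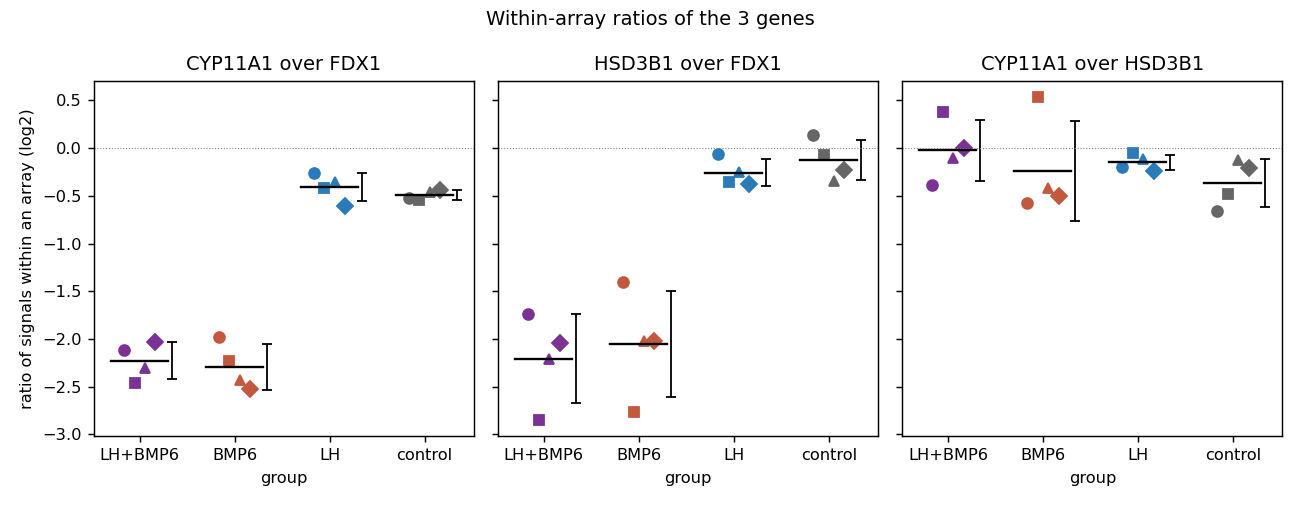
Log2 ratio of the signals of 2 genes on the same array (vertical axis) by group, with the group mean as a line and the SD of 4 arrays as a bar. CYP11A1 over FDX1 lies between -2.53 and -1.99 on the arrays with BMP6 and between -0.61 and -0.26 on the others, while CYP11A1 over HSD3B1 overlaps between all groups.

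LH alone gave higher values of the 3 genes in every case, but no call. The changes were 0.50 ± 0.16 for CYP11A1 (95% confidence interval 0.16 to 0.84, adjusted p = 0.74), 0.42 ± 0.12 for FDX1 (0.16 to 0.67, adjusted p = 0.662) and 0.28 ± 0.25 for HSD3B1 (-0.25 to 0.81, adjusted p = 0.941). By limma 3 of 24016 probe sets were called in this comparison (0.0125%), and 1291 had an unadjusted p under 0.05. The unadjusted p was 0.00283 for FDX1, 0.00669 for CYP11A1 and 0.277 for HSD3B1. All 4 LH arrays lay above all 4 control arrays for CYP11A1 and for FDX1, as they did for 1.92% of probe sets, and the groups overlapped for HSD3B1. LH replicate 1 was the highest LH array for each gene. Without it the differences were 0.29 for CYP11A1, 0.25 for FDX1 and 0.05 for HSD3B1. STAR (1.49 ± 0.68), CYP17A1 (1.31 ± 0.52), LHCGR (0.23 ± 0.19) and NR5A1 (0.20 ± 0.10) were not called with LH either. LH replicate 1 is among the 3 arrays with weak hybridisation controls. Without all 3 the differences were 0.25 for CYP11A1, 0.21 for FDX1 and 0.04 for HSD3B1, while with weak hybridisation controls as a term they were 0.58, 0.48 and 0.38, none of them called.

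In the presence of BMP6, LH gave no call for any of the 3 genes. LH+BMP6 against BMP6 gave 0.10 ± 0.16 for CYP11A1 (95% confidence interval -0.24 to 0.44), 0.03 ± 0.12 for FDX1 (-0.22 to 0.28) and -0.12 ± 0.25 for HSD3B1 (-0.65 to 0.41), each with an adjusted p of 1.00 and with overlapping groups. For HSD3B1 the interval holds the value seen with LH alone against control, and for CYP11A1 and FDX1 it lies below that value; the interaction tests that difference. By limma 0 probe sets were called in this comparison (0.0%), and 471 had an unadjusted p under 0.05.

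The interaction of LH and BMP6, the difference between the effect of BMP6 with and without LH, had nearly the same value for the 3 genes: -0.40 ± 0.23 for CYP11A1, -0.40 ± 0.36 for HSD3B1 and -0.39 ± 0.17 for FDX1. None was called (adjusted p = 1.00 for each, unadjusted p = 0.0965, 0.275 and 0.0362). By limma 0 of 24016 probe sets were called, and 773 had an unadjusted p under 0.05. Without all arrays of replicate 1 the interaction was -0.06 for CYP11A1, -0.15 for HSD3B1 and -0.17 for FDX1. The LH groups enter this value and the comparisons with LH alone, so they do not support each other.

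Split by sums of squares over the 16 arrays, BMP6 accounted for 94.6% of the variation of CYP11A1, 91.9% of that of HSD3B1 and 64.5% of that of FDX1. LH accounted for 1.44%, 0.0959% and 9.22%, and the interaction for 0.659%, 0.575% and 6.78%. The remainder, within groups, was 3.33%, 7.45% and 19.5%. FDX1 was thus the gene with the largest share of variation in the LH and interaction terms. These are shares of each gene's own variation. The LH and interaction changes of FDX1 were not larger than those of CYP11A1.

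**Figure D3:**
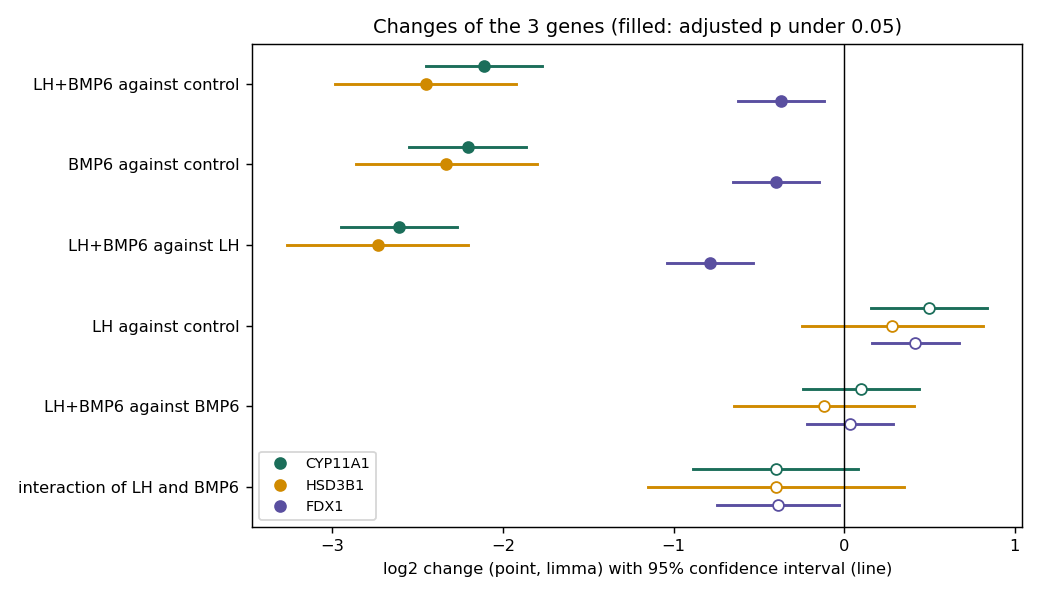
Log2 change (horizontal axis, point) with its 95% confidence interval (line) of CYP11A1, HSD3B1 and FDX1 in each comparison and for the interaction; filled points passed an adjusted p of 0.05. The 3 comparisons of BMP6 hold all filled points, with CYP11A1 and HSD3B1 between -2.73 and -2.11 and FDX1 between -0.79 and -0.37.

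Genes around these enzymes were counted in lists of related genes, with 1 probe set per gene, the brightest. In BMP6 against control, 15.5% of the 9155 named genes were called lower and 9.31% higher, and in LH+BMP6 against LH 15.5% and 11.7%. Among the genes of electron transfer to P450 enzymes, 8 of 10 were measured, and ferredoxin reductase (FDXR) is not named by the annotation used here. Of the 8, 0 rose and 4 fell with BMP6 alone, with a median of -0.38 against 0.01 over all probe sets. Besides FDX1 they were CYB5R3, which reduces cytochrome b5 (-1.38 ± 0.12, adjusted p = 8.91e-07), and 2 genes of mitochondrial NADPH supply, NNT (-0.47 ± 0.09) and NADK2 (-0.43 ± 0.12). Leaving out BMP6 replicate 2 or 3, or control replicate 2 or 4, ended the NADK2 call (adjusted p 0.0594 to 0.0734). It was lost in 7 of 20 fits with arrays left out (highest adjusted p = 0.157). In LH+BMP6 against LH 5 fell and 0 rose: FDX1, CYB5R3 (-1.29 ± 0.12), cytochrome b5 CYB5A (-0.59 ± 0.13), NNT (-0.44 ± 0.09) and FDX2, the ferredoxin of iron-sulfur cluster assembly (-0.28 ± 0.08), which was named after its value was seen. The CYB5A call was lost without replicate 3 (adjusted p = 0.0662). That of FDX2 was lost in 5 of 20 fits with arrays left out (highest adjusted p = 0.136, without all arrays of replicate 2). Among them were those without LH replicate 1 or LH+BMP6 replicate 2 (0.0579 and 0.0643). The FDX2 call was also lost with only the arrays compared (0.0580) and without the 3 arrays with weak hybridisation controls (0.0791). All 8 measured genes, FDX1 among them, had an unadjusted p under 0.05 by limma in LH+BMP6 against LH, each lower. Such values were common: of the 24016 probe sets tested, 7533 had one in that comparison, in either direction. In BMP6 against control 7127 did.

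FDX1 is an iron-sulfur protein and has a known part in protein lipoylation, so genes of those pathways were counted too. Of 11 measured of 15 listed, 2 rose and 5 fell with BMP6 alone (median -0.27). GLRX5 (0.75 ± 0.12) and ISCA1 (0.51 ± 0.07), both of iron-sulfur cluster assembly, rose, and the lipoyltransferase LIPT1 (-0.59 ± 0.14) and the lipoic acid synthase LIAS (-0.44 ± 0.12) were among those that fell. The LIAS call ended when BMP6 replicate 2, control replicate 1 or 2, or the 3 arrays with weak hybridisation controls were left out (adjusted p 0.0537 to 0.0908), and that of LIPT1 without replicate 2 (0.0711). Without all arrays of replicate 2 the adjusted p of LIAS was 0.174 by limma. With LH present 2 rose and 5 fell (median -0.22), or 2 and 2 without those 3 arrays. The 2 measured P450 enzymes of mitochondria other than CYP11A1, CYP27A1 and CYP11B1, gave 0 calls by limma in either comparison, with 1 lower at an unadjusted p under 0.05 in BMP6 against control and 0 in LH+BMP6 against LH. CYP11B1 read low, with group means of 4.84 to 5.03, below the array medians.

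Upstream of CYP11A1, 11 of 17 genes of cholesterol supply were measured, and 1 rose and 2 fell with BMP6 alone (median 0.02). TSPO, the translocator protein of mitochondria, rose (0.88 ± 0.11, adjusted p = 5.25e-05), and SCARB1, the lipoprotein receptor, fell (-0.72 ± 0.15, adjusted p = 0.00279), as did the channel VDAC1 (-0.33 ± 0.09), whose call ended when the 3 arrays with weak hybridisation controls were left out (adjusted p = 0.0785). STAR, which moves cholesterol to the inner membrane, was at -1.74 ± 0.68 and not called (adjusted p = 0.0901), and leaving out BMP6 replicate 3 made it a call (-2.23, adjusted p = 0.0371). With LH present 4 rose and 3 fell (median -0.10). TSPO (1.10 ± 0.11), the cholesterol ester hydrolases NCEH1 (1.04 ± 0.22) and LIPA (0.58 ± 0.15) and the lysosomal cholesterol carrier NPC2 (0.22 ± 0.06) rose. STAR fell there (-3.21 ± 0.68, adjusted p = 0.00264, or -2.14 without replicate 1), with SCARB1 (-1.33 ± 0.15) and VDAC1 (-0.29 ± 0.09). The NPC2 call ended without LH replicate 1 (adjusted p = 0.0611), LH+BMP6 replicate 1 (0.0553) or the 3 arrays with weak hybridisation controls (0.0819), and with only the arrays compared (0.0692). That of VDAC1 was lost in 6 of 20 fits with arrays left out, among them those without LH replicate 1 or 3 or LH+BMP6 replicate 2 or 3 (adjusted p 0.0509 to 0.0869), and without the weak-control arrays (0.115). LIPA lost its call without replicate 4 (0.0558).

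Downstream, 17 of 25 enzymes of a broad list of steroid metabolism were measured, with 0 higher and 4 lower with BMP6 alone (median -0.05). Not all enzymes of this list act on pregnenolone or progesterone. The falls were CYP17A1, the P450 of androgen synthesis (-2.80 ± 0.52, adjusted p = 0.00115), HSD3B7, a relative of HSD3B1 that acts in bile acid synthesis (-0.83 ± 0.10, adjusted p = 2.79e-05), HSD17B8 (-0.80 ± 0.10) and AKR1C4 (-0.68 ± 0.17). The 5 other AKR1C4 probe sets were between -0.13 and 0.18 and not called, and its own call was lost without replicate 2 (adjusted p = 0.101). With LH present 0 rose and 5 fell (median -0.07), namely CYP17A1 (-4.15 ± 0.52), HSD17B8 (-0.68 ± 0.10), HSD3B7 (-0.55 ± 0.10), the 21-hydroxylase CYP21A2 (-0.44 ± 0.15) and HSD17B10 (-0.40 ± 0.12), or 3 without the arrays with weak hybridisation controls. CYP21A2 lost its call in 10 of 20 fits with arrays left out (highest adjusted p = 0.201), and HSD17B10 in 6 of 20. Without LH replicate 1 HSD17B10 was at -0.24 (adjusted p = 0.0914), and without LH+BMP6 replicate 3 or 4 its call was lost too (adjusted p 0.0736 to 0.0795). Of progesterone receptor genes, PGR and PGRMC1 were measured and gave 0 calls by limma, with 1 of them lower at an unadjusted p under 0.05 in each comparison. Low signals limit some of these values. Group means were 3.95 to 4.08 for PGR, 4.41 to 5.09 for AKR1C4 and 4.48 to 4.98 for CYP21A2, below the array medians.

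Regulators of these enzymes moved in both directions: of 16 measured of 20 listed, 5 rose and 3 fell with BMP6 alone, and 5 and 3 with LH present. NR5A1, the nuclear receptor that drives CYP11A1 and HSD3B genes, fell by 1.55 ± 0.10 (adjusted p = 2.91e-08), and its 3 other probe sets were between -1.31 and -0.27. The LH receptor gene LHCGR fell by 2.06 ± 0.19 and NR0B1, a repressor of NR5A1, by 1.31 ± 0.20. Of the other LHCGR probe sets, 1 was at -2.01 and 1 at 0.03 (adjusted p = 0.942) and the other NR0B1 probe set was at 0.05 (adjusted p = 0.812). NR4A1, an orphan nuclear receptor, rose by 1.16 ± 0.19, with its relative NR4A2 (0.97 ± 0.18) and the transcription factors KLF4 (0.91 ± 0.15), CEBPB (0.56 ± 0.16) and GATA6 (0.38 ± 0.09). The CEBPB call was lost in 6 of 20 fits with arrays left out, among them those without BMP6 replicate 2 (adjusted p = 0.0812), control replicate 2 (0.0858) or control replicate 4 (0.0649), and without all arrays of replicate 2 its change was 0.32 (adjusted p = 0.127). NR5A2 was at -0.10 ± 0.07 and not called (adjusted p = 0.401). Its signal was low in every group (means 3.44 to 3.53, against array medians of 6.10 to 6.16), so a change could go unseen.

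**Figure D4:**
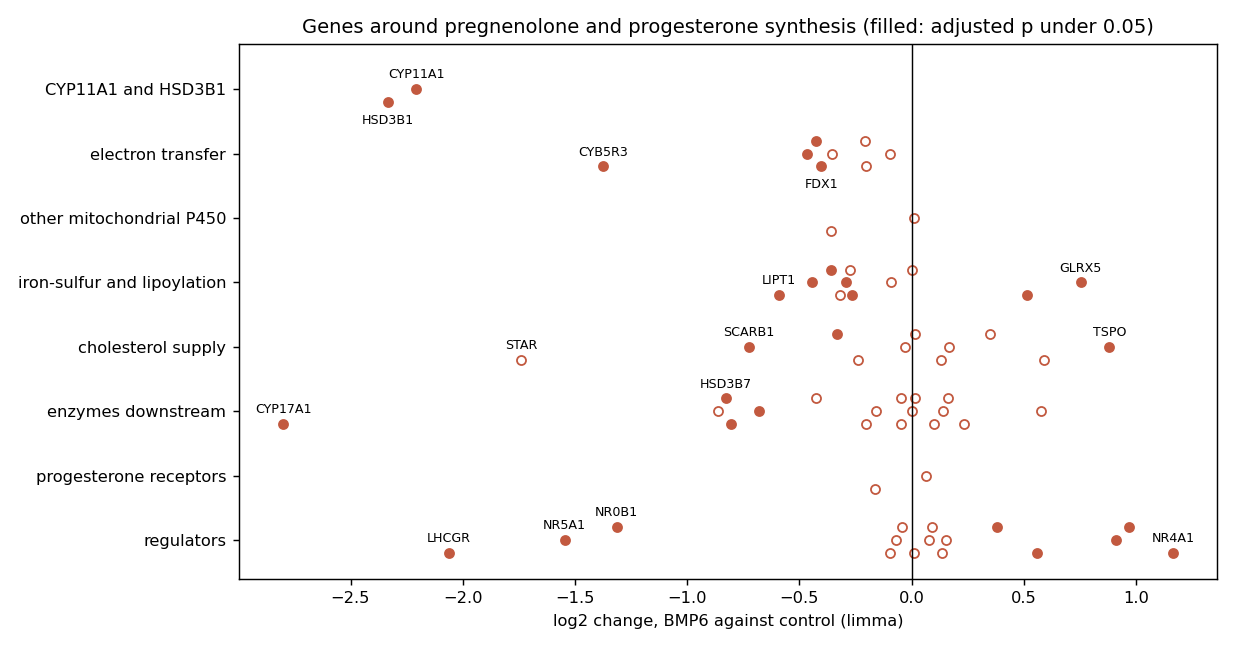
Log2 change in BMP6 against control (horizontal axis) of CYP11A1 and HSD3B1 and of the measured genes of 7 lists around them; a point is a gene, filled where its adjusted p was under 0.05. CYP11A1, HSD3B1, CYP17A1 and LHCGR lie below -2, FDX1 at -0.40 lies among the other electron transfer genes, and TSPO, NR4A1 and GLRX5 lie on the right.

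Markers of cell types moved with BMP6 as well, and in whole cultures fewer theca cells and less RNA per theca cell cannot be told apart. The theca markers other than the genes described here (CYP17A1, INSL3, LHCGR and STAR) had a summed log2 signal of 8.66 to 10.25 with BMP6 alone, against 13.93 to 14.36 in control. INSL3 averaged 14.08 ± 0.19 in control and 8.38 ± 1.45 with BMP6 (SD, n = 4). The control means of CYP17A1, LHCGR and STAR were 7.38, 7.88 and 8.46. The control sum is thus mostly INSL3, and its drop mostly follows that gene. Of 5 measured leukocyte markers 1 rose and 0 fell, with a summed signal of 9.72 to 10.52 against 9.52 to 9.56. At an unadjusted p under 0.05 by limma, 4 of these 5 were higher and 0 lower (median change 0.56). Of the 24016 probe sets tested, 7127 had such a p in BMP6 against control, in either direction. Of 6 fibroblast markers 3 rose and 0 fell (15.13 to 15.30 against 14.58 to 15.03), of 8 endothelial markers 0 rose and 1 fell (8.77 to 9.49 against 9.18 to 10.02), and of 6 of smooth muscle and pericytes 1 rose and 0 fell. Of 6 granulosa markers 0 rose and 1 fell (7.54 to 7.96 against 10.30 to 11.35). The 1 that fell was INHA (-4.13 ± 0.24), and 3 of the 6 were lower at an unadjusted p under 0.05. INHA averaged 10.56 ± 0.52 in control, far above the other markers of this list. The control sum is thus mostly INHA, and its drop is not a measure of granulosa cells. AMH averaged 3.89 ± 0.08 and HSD17B1 5.47 ± 0.30 with BMP6, against 4.32 ± 0.37 and 6.33 ± 0.88 in control. CYP19A1 averaged 4.65 ± 0.09, FSHR 3.57 ± 0.07 and FOXL2 4.82 ± 0.07 with BMP6, against 4.49 ± 0.12, 3.50 ± 0.19 and 4.72 ± 0.18 in control. In LH+BMP6 against LH 6 of 6 theca markers fell, but this count includes CYP11A1 and HSD3B1 themselves. In that comparison 4 leukocyte, 2 fibroblast and 2 smooth muscle markers rose, and 1 marker each of smooth muscle, granulosa and endothelial cells fell. The theca sum without the genes described here was 8.93 to 10.65 with LH+BMP6, against 14.12 to 14.52 with LH. It is again mostly INSL3 with LH (14.07 ± 0.07). RNA quality, read as the excess of the actin probe set at the 3 prime end over that at the 5 prime end, was 1.86 ± 0.28 with BMP6 and 2.20 ± 0.35 in control (SD, n = 4), with overlap. For GAPDH it was 0.229 ± 0.039 with BMP6 and 0.342 ± 0.051 in control, without overlap (0.184 to 0.270 against 0.293 to 0.411). With LH+BMP6 against LH it was 1.72 ± 0.28 against 2.10 ± 0.16 for actin and 0.140 ± 0.020 against 0.265 ± 0.113 for GAPDH, with overlap in both. The part of these values in the falls of the 3 genes was not tested.

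Over the 16 arrays, CYP11A1 followed HSD3B1 closely (Pearson r = 0.972) and FDX1 less so (r = 0.899, and 0.845 between HSD3B1 and FDX1). The arrays fall into a set with BMP6 and a set without, so these values follow that separation. Of 9154 other genes, 414 reached r = 0.9 with CYP11A1 (4.52%), 498 with HSD3B1 (5.44%) and 73 with FDX1 (0.797%). The genes most like CYP11A1 were MRPL41, of the mitochondrial ribosome (r = 0.986), NR5A1 (0.984), the fatty acid synthase FASN (0.983), the mitochondrial peroxiredoxin PRDX3 (0.983) and the ATP synthase subunit ATP5ME (0.982). For HSD3B1 they were LOC508666, named by a locus number alone (0.992), PRDX3 (0.988), PRADC1 (0.988), the propionyl-CoA carboxylase subunit PCCB (0.988) and EID1 (0.985).

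The genes most like FDX1 were SCARB1 (r = 0.977), the sterol reductase TM7SF2 (0.976), COPS9 (0.969), TMEM97 (0.963) and QPCTL (0.961). Once each group's mean had been subtracted, SCARB1 (0.893) and TM7SF2 (0.872) were again among the 5 genes most like FDX1, with RGN (0.884), PIGB (0.868) and SNRNP25 (0.859). LH replicate 1, which had weak hybridisation controls, was the highest array of FDX1, SCARB1 and TM7SF2. It read 12.65, 12.05 and 10.15, against LH means of 12.16, 11.41 and 8.71. How far the values of r rest on that array was not tested. SCARB1 stood at 11.41 ± 0.43 with LH, against 10.69 ± 0.16 in control, and at 9.96 ± 0.12 with BMP6. On the same subtracted values r was 0.751 between CYP11A1 and FDX1, 0.605 between CYP11A1 and HSD3B1 and 0.381 between HSD3B1 and FDX1. The genes nearest to CYP11A1 there were LRRC8E (0.944), the acetyl-CoA synthetase ACSS2 (0.917), the sterol reductase DHCR7 (0.910), UBE3A (0.90) and PCYT2 (0.894), and those nearest to HSD3B1 were ZNF181, PSME4, SELENOP, GGACT and FXR1 (0.932 to 0.940).

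**Figure D5:**
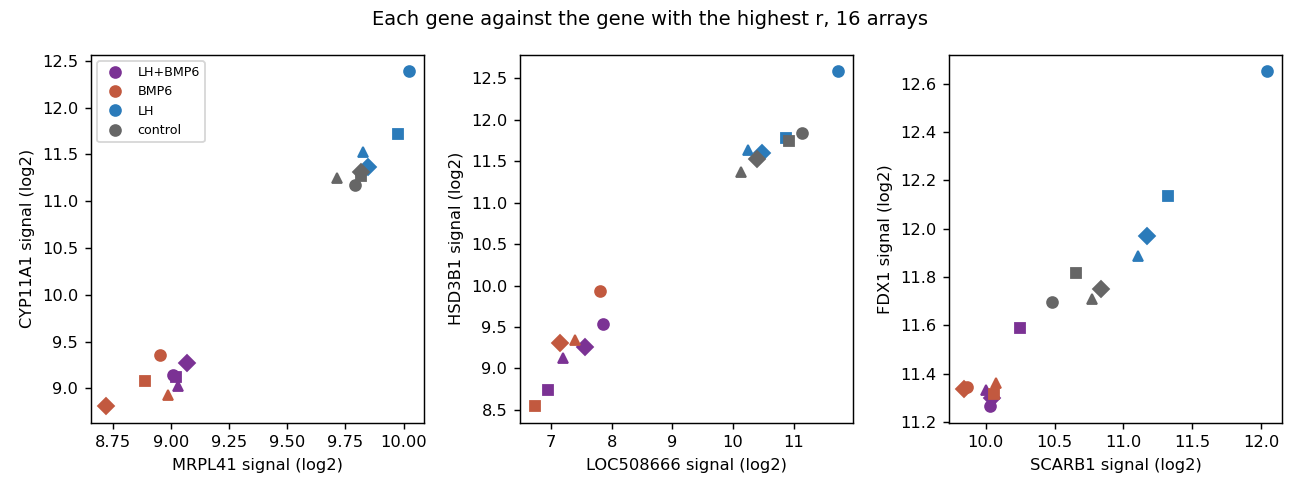
Log2 signal of CYP11A1, HSD3B1 and FDX1 (vertical axes) against that of the gene with the highest r for each, MRPL41, LOC508666 and SCARB1 (horizontal axes); a point is an array, coloured by group and shaped by replicate number. The arrays with BMP6 form a low set in each plot (r = 0.986, 0.992 and 0.977), and LH replicate 1 is the highest array of FDX1 and of SCARB1.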

How the data were processed

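The table holds log2 signals per probe set, which the authors computed with RMA (Affymetrix Expression Console) and deposited, per the submitters' processing notes, where no version is named. RMA subtracts background, equalises the distribution of the arrays and summarises probes, so a change common to all genes cannot be seen. The values were used as deposited, and 0 per-sample columns were left unused. After 112 control probe sets were set aside, 24016 were tested without a filter. The annotation gave 1 symbol to 13292, several to 86 and none to 10638. Entrez identifiers were found for 13263 and changed 0 symbols. A gene is given by its brightest probe set. Other probe sets are given for NR5A1, LHCGR, NR0B1 and AKR1C4 only. Further named genes have several as well, among them NR4A2 (4), FDX2 (3), and CEBPB, NNT, VDAC1 and NCEH1 (2 each). Whether their other probe sets moved alike is not given here.

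limma 3.58.1 (R 4.3.3) was run with a coefficient per group over all 16 arrays and eBayes with an intensity trend, with adjustment over 24016 probe sets. It was tested on simulated data. Ratios were tested by exact permutation (scipy 1.17.1) and adjusted over 12 tests. Nothing in the labels ties an array to a culture beyond its replicate number. Alternatives were the replicate block (fixed, or random with statmod 1.5.0), other eBayes settings, quantile normalization, median centring, a filter that removed the 40% of dimmest probe sets, fits of only the arrays compared, and arrays left out.

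The genes and lists were chosen with earlier results of these data known. Named are the 3 genes, up to 4 called genes of each of the 7 lists with the largest change, STAR, CYP17A1, NR5A1, NR5A2 and LHCGR, and the 5 genes most like each of the 3 by Pearson r. Where a list had a few more called genes the remaining ones were named as well, and these, FDX2 and the granulosa markers were named after their values were seen. Promoter motifs and sequences were not analysed here. Figures were drawn with matplotlib 3.10.9 (Python 3.11.15).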

Additional observations from a re-analysis of the deposited data

How the results depend on the processing

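CYP11A1 and HSD3B1 kept their fall and their call in all 3 comparisons of BMP6 (against control, with LH, and both hormones against control) in each of 20 fits with arrays left out and under each of 11 other alternatives, and FDX1 did so in LH+BMP6 against LH. Left-out arrays gave -2.34 to -2.11 for CYP11A1, -2.55 to -2.04 for HSD3B1 and -0.42 to -0.37 for FDX1 in BMP6 against control. In LH+BMP6 against LH they gave -2.78 to -2.40, -2.87 to -2.50 and -0.88 to -0.59, and in LH+BMP6 against control -2.15 to -2.07, -2.57 to -2.27 and -0.44 to -0.33. FDX1 lost its call in 7 of 20 such fits of BMP6 against control and in 10 of 20 of LH+BMP6 against control (highest adjusted p = 0.118 and 0.166). Low hybridisation-control signal as a term, chosen after earlier results were known, gave FDX1 -0.28 and -0.25 (adjusted p = 0.176 and 0.231), and with the replicate block as well -0.25 and -0.22 (0.214 and 0.28); the cause was not tested. Values with LH were never called: 0.26 to 0.65 for CYP11A1, 0.05 to 0.38 for HSD3B1 and 0.24 to 0.51 for FDX1 with arrays left out. In LH+BMP6 against BMP6 the signs turned in some of these fits (-0.024 to 0.20, -0.36 to 0.10 and -0.048 to 0.069), and the interaction ranged over -0.67 to -0.06, -0.65 to -0.15 and -0.50 to -0.17. For the ratios in LH+BMP6 against BMP6 the ranges were -0.012 to 0.17 for CYP11A1 over FDX1 and -0.39 to 0.066 for HSD3B1 over FDX1. CYP11A1 over HSD3B1 ranged over -0.13 to 0.24 in BMP6 against control and -0.010 to 0.24 in LH+BMP6 against LH.

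Deviations from group means of same-numbered arrays correlated at 0.02 to 0.38 on average by comparison, and 3 to 7 of 8 arrays were closest to their own number (7 in LH+BMP6 against LH, with 3 of 4 pairs over 0.1, and 4 in BMP6 against control, with 1 of 4). As no comparison had every pair over 0.1, the replicate number was not taken as a pairing. Each number holds an array of every group, however, and same-numbered arrays correlated more than other pairs on average in each comparison. The means were 0.38 against -0.12 in LH+BMP6 against BMP6 and 0.02 against -0.01 in LH+BMP6 against control. The main SEs leave out such a block: for HSD3B1 the SE was 0.25 without it and 0.16 with it as a fixed term. The replicate block gave 5202 calls in BMP6 against control and 5706 in LH+BMP6 against LH, and changed no call of the 3 genes: FDX1 in BMP6 against control had adjusted p = 0.0207 with it, and CYP11A1 with LH 0.385.

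Probe sets called with LH numbered 1 with only the arrays compared, 0 when the 3 arrays with weak hybridisation controls were dropped and 0 to 6 with arrays left out, against 3. In BMP6 against control the count was 2660 without those 3 arrays, 2766 with that signal as a term and 2703 to 4590 with arrays left out, against 4340. In LH+BMP6 against LH it was 2963 to 5210 with arrays left out, against 4879, and in LH+BMP6 against control 2837, 2774 and 2754 to 4935, against 4635. Fewer arrays also mean less power. The mean over a gene's probe sets was not run, as each of the 3 genes has 1 probe set, and no background level was measured.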
